A study of Mus musculus with 20 samples.

Results

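The 9 genes described here code for the cardiac calcium release complex and its close partners, among them genes whose variants cause catecholaminergic polymorphic ventricular tachycardia (CPVT), an inherited arrhythmia triggered by stress. They were taken by gene symbol from the deposited table, Ryr2, Casq2, Trdn, Calm2, Calm3, Asph, Fkbp1b, Jph2 and Cav3, and are 9 of the 29339 genes listed. RNA was read from hearts of C57BL/6 mice aged 8 weeks, wild-type (WT) or Tecrl-/- (KO), in 20 libraries: 5 labelled male WT, 5 male KO, 3 female WT and 7 female KO. How the Tecrl allele was made is not given in the sources used here, and no treatment is named for any group. The library names form 2 series, S1 to S12 (12 libraries, 3 of each group) and a set of 8 called WT1, WT2 or TKO1 to TKO6, with no female WT among them. What the names stand for is not given in the sources used here. The study's methods describe fewer mice in all than the libraries tested here, and no label names the animal, so p-values measure the spread between these libraries, part of which may be technical.

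In heart muscle, calcium entering through L-type channels opens the ryanodine receptor RYR2 in the facing membrane of the sarcoplasmic reticulum, and the released calcium starts contraction. Inside the reticulum, calsequestrin 2 stores calcium and is tied to the channel by triadin and junctin. Calmodulin and the immunophilin FKBP12.6 bind the channel from the cytosol, and junctophilin 2 and caveolin 3 hold or shape the membranes where the meeting takes place.

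Facts that touch every result were read first. Total counts ran from 12540002 to 20038593 per library, and mitochondrial genes took 15.3% to 30.4% of them. The 8 ventricular cardiomyocyte markers summed to 39329 to 60351 CPM (counts scaled by library size and TMM factor) in every library, whereas the skeletal muscle markers summed to at most 20.2 CPM. The targeted gene Tecrl had 51.5 to 124 CPM (median 79.3, n = 8) in the libraries labelled WT and 60.0 to 100.2 CPM (median 90.2, n = 12) in those labelled KO, so it did not separate the labels. Counts per exon were not analysed here. Libraries S7, S8 and S9, labelled male WT, carried Xist at 250.02 to 320 CPM and no Y-linked reads, and S4, S5 and S6, labelled female KO, carried Y-linked genes at 182.0 to 203 CPM and almost no Xist. Within the S series all WT libraries therefore carried Xist and all KO libraries the Y-linked genes, so that genotype and sex-linked expression cannot be told apart there. Atrial markers summed to 6958 CPM in S7, 5798 in S9, 7170 in S11 and 2040 in S12, and to at most 541 CPM in the other 16 libraries.

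The genes lie on 9 chromosomes of GRCm38 (positions from GENCODE M21, all protein coding). Ryr2 (ENSMUSG00000021313), the release channel, spans chromosome 13 from 11553102 to 12106945 on the minus strand. Its luminal partners are Casq2 on chromosome 3 (102086415 to 102146514, plus strand), Trdn, coding for triadin, on chromosome 10 (33080554 to 33476709, plus strand), and Asph, whose splice products include junctin and an aspartyl hydroxylase and are summed in its value, on chromosome 4 (9448069 to 9669344, minus strand). Of the channel-bound cytosolic proteins, calmodulin comes from Calm2 on chromosome 17 (87433412 to 87446935, minus strand) and Calm3 on chromosome 7 (16915379 to 16924114, minus strand), and FKBP12.6 from Fkbp1b on chromosome 12 (4833174 to 4841591, minus strand). Jph2 lies on chromosome 2 (163336242 to 163397993, minus strand) and Cav3 on chromosome 6 (112459505 to 112472872, plus strand). Only Asph shares exon positions with other genes, over 2368 bases, and those genes held 202 counts in all libraries against 43085 for Asph.

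RefSeq (GRCm38.p6) gives a start site for 6 of the 9 genes, and Trdn, Asph and Calm2 had none in the table used. The 250 bases before the start site are shown for Casq2, Jph2, Calm3 and Ryr2, because Casq2, Jph2 and Calm3 varied together over the libraries and Ryr2 codes for the channel itself. They are chr3:102086165-102086414 (plus strand), chr2:163397994-163398243 (minus; Jph2 has a second listed start), chr7:16924033-16924282 (minus) and chr13:12106946-12107195 (minus). Each is written 5′ to 3′, with matches to the searched motifs in capitals.
Casq2: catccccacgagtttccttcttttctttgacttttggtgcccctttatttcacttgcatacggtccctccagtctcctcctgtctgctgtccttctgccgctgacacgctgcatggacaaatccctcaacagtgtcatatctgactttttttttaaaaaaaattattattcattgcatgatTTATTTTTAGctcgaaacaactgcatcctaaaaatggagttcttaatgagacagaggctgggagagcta
Jph2: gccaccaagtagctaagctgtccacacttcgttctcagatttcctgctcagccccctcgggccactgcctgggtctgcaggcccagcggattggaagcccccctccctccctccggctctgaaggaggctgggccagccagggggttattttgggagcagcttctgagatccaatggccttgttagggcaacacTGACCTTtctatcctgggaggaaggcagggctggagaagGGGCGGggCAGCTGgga
Calm3: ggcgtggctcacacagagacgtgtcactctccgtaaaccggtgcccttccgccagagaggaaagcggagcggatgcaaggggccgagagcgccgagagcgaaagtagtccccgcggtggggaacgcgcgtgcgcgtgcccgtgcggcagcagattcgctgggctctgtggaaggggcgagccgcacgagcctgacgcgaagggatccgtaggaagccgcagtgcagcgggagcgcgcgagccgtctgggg
Ryr2: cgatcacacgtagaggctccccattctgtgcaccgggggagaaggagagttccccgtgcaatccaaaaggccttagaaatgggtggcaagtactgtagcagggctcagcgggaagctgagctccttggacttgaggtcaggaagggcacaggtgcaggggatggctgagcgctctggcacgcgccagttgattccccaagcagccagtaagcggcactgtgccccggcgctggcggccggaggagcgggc

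Of 7 motifs searched on both strands (the TATA element TATAAA, the GC box GGGCGG, the E-box CAGCTG, the TEAD motif CATTCC, the nuclear receptor half-site AAGGTCA, and the MEF2 and CArG boxes by name), Casq2 held the MEF2 box alone, at position -69. The MEF2 box was present in 2.92% of all 32851 windows of this length. Jph2 held AAGGTCA on the minus strand at position -56 (in 4.08% of windows), GGGCGG at position -17 (32.7%) and CAGCTG at position -9 (13.001%), with no overlap between them. Calm3 and Ryr2 held none of the 7 in these 250 bases. Cav3 shared AAGGTCA and CAGCTG with Jph2, and Fkbp1b held GGGCGG at 2 places. The base composition of the 4 windows shown was unlike: G and C made up 41.6% in Casq2, 62.0% in Jph2, 69.2% in Calm3 and 63.2% in Ryr2, against a median of 52.4% over all windows. The number of CG pairs was 5 in Casq2, 5 in Jph2, 33 in Calm3 and 14 in Ryr2 (median of all windows 6). A match is a stretch of letters and says nothing of binding.

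Levels of different genes were compared on the FPKM scale, which the authors computed per exon length. Casq2, the calcium store, stood highest at 212 ± 36.4 FPKM (SD, n = 20 here and for the next values), and its range did not overlap that of any other member. Jph2 followed at 100.2 ± 25.3, Calm2 at 83.5 ± 20.5, Cav3 at 67.5 ± 13.6 and Calm3 at 48.6 ± 7.65 FPKM. Ryr2 stood at 30.7 ± 5.85 and Trdn at 28.5 ± 2.37 FPKM. Asph was lower, at 8.84 ± 1.47 FPKM, and Fkbp1b was the lowest at 0.809 ± 0.266 FPKM. Ryr2 and Trdn were not separable, with Ryr2 the higher in 11 of 20 libraries, and Jph2 was above Calm2 in 14 of 20. Calm2 exceeded Cav3, and Cav3 exceeded Calm3, in 17 of 20 libraries each, while Calm3 was above Ryr2 in 20 of 20.

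**Figure D1:**
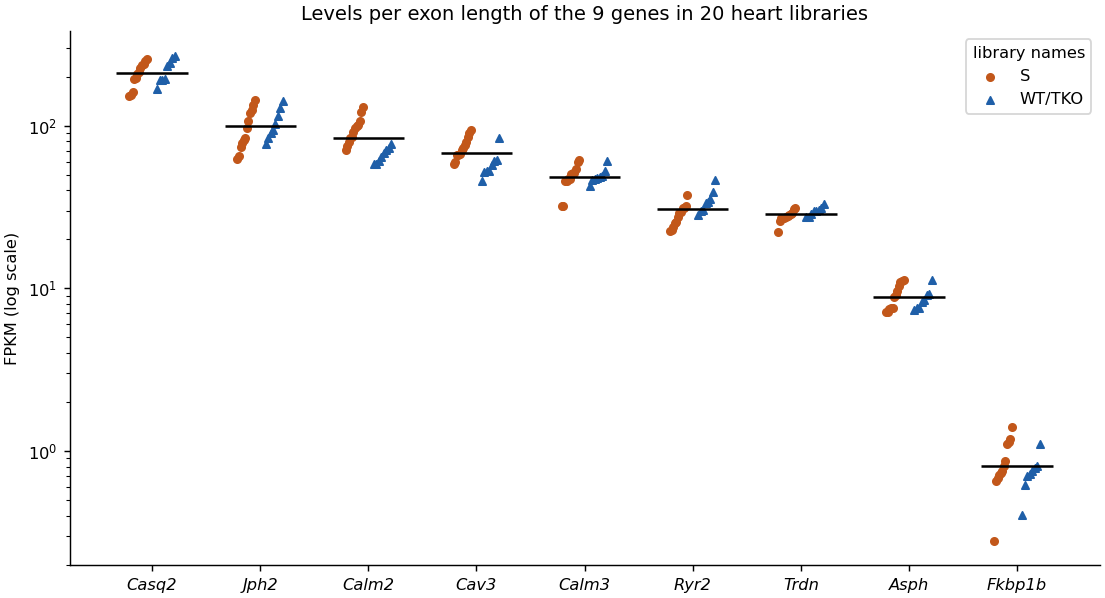
FPKM (log axis) of each of the 9 genes in the 20 heart libraries; circles are S libraries, triangles WT/TKO libraries and lines the means. Casq2 (151.6 to 270 FPKM) and Asph and Fkbp1b form separate levels, whereas the genes between them overlap.

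The merged exons by which FPKM is divided are much longer than one transcript for some members. Trdn has 9352 merged exon bases against 4514 in its longest annotated transcript, and Ryr2 28790 against 16814. With the longest transcript as the length, Trdn rose from place 7 to place 5 (58.96 FPKM on that scale) and Calm3 moved from place 5 to place 7 (51.4), and Calm2 (101.6) and Jph2 (101.2) exchanged places. Casq2 stayed in first place, and Asph and Fkbp1b stayed last.

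In 3 gene families a member held most of the message. Ryr2 made up 99.6% ± 0.653 of the summed FPKM of the 3 ryanodine receptor genes, Casq2 97.3% ± 1.99 of the calsequestrins and Jph2 96.1% ± 0.753 of Jph1 and Jph2 (SD, n = 20). Cav3, the muscle caveolin, held 32.1% ± 5.33 of the caveolin sum, below Cav1, which is also made by endothelial cells. Fkbp1b likewise held little of its pair, since its close relative Fkbp1a, coding for FKBP12, held 98.4% ± 0.512. Fkbp1b had 4 to 21 counts per library, close to the floor of 3 counts, and its fold changes are correspondingly uncertain.

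In the libraries labelled male, KO was set against WT. None of the 9 genes had a Benjamini-Hochberg adjusted p under 0.05, and the largest difference was in Jph2, whose product tethers the T-tubule to the sarcoplasmic reticulum. Jph2 had 544, 583 and 318 CPM in S7, S8 and S9 and 687 and 368 CPM in WT1 and WT2. In the KO libraries it had 357, 315 and 283 CPM in S10, S11 and S12 and 402 and 355 CPM in TKO5 and TKO6. Of the WT libraries 3 lay above every KO library and the other 2, S9 and WT2, lay within the KO range. The log2 fold change was -0.56 (SE 0.205, unadjusted p = 0.0184, adjusted p = 0.882, by the quasi-likelihood test of edgeR). Within series the value was -0.60 in the S libraries alone and -0.48 in WT1 and WT2 against TKO5 and TKO6.

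For the channel and its calcium store the genotypes overlapped in the libraries labelled male. Ryr2 had 960, 918, 575, 1273 and 899 CPM in the WT libraries S7, S8, S9, WT1 and WT2, and 712, 796, 711, 893 and 882 CPM in the KO libraries S10, S11, S12, TKO5 and TKO6. The KO libraries lay inside the WT range, at a log2 fold change of -0.21 (SE 0.163, edgeR adjusted p = 0.882). Casq2 had 589, 656, 395, 811 and 535 CPM in WT and 585, 509, 525, 548 and 499 CPM in KO, in the same order, at -0.17 (SE 0.173, adjusted p = 0.882). The SD of Casq2 was 153 CPM in WT and 34.4 CPM in KO (n = 5 each), a difference that was not tested. Of these WT libraries S7, S8 and S9 carried Xist, whereas WT1, WT2 and the KO libraries carried Y-linked genes. Leaving out 1 library moved the uncalled fold changes, for Ryr2 from -0.31 (without S9) to -0.11 (without WT1) and for Casq2 from -0.27 (without S9) to -0.02 (without WT1). Calm2 was at -0.24 (SE 0.127), Calm3 at -0.13, Asph at -0.07, Trdn at 0.09, Cav3 at 0.26 (SE 0.136) and Fkbp1b at 0.34 (SE 0.402) on the log2 scale. Without 1 library Calm2 ran from -0.33 (without TKO6) to -0.17 (without S12), Calm3 from -0.17 (without WT2) to -0.0030 (without WT1) and Trdn from 0.02 (without S10) to 0.18 (without WT1). Cav3 ran from 0.17 (without TKO6) to 0.34 (without S9) and Fkbp1b from 0.17 (without WT2) to 0.58 (without S10).

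Of the 9 genes 3 were higher and 6 lower in the libraries labelled male KO, with a median log2 fold change of -0.13 against -0.01 over all 14481 genes tested. Over all genes, 0% had an adjusted p under 0.05 in edgeR; 688 genes (4.75%) and 1 member, Jph2, had an unadjusted p under 0.05. DESeq2 called 12 genes and 0 members. At the study's thresholds, which ask for p under 0.05 before adjustment and a log2 change of 0.58 or more either way, 0 members passed against 2.09% of all genes, and Jph2 lay just under the fold threshold. Other markers moved here too: all 3 tested adipocyte markers were lower in KO past the study's thresholds (median log2 fold change -4.09) and all 4 Y-linked genes higher past them (median 3.54), while values were below 0 for 5 of 5 macrophage (median -0.20) and 4 of 5 red blood cell markers (-0.41) and above 0 for 4 of 5 endothelial markers (0.29), none of these at an adjusted p under 0.05. Library S7, among the WT libraries high in Jph2, held 675 CPM of adipocyte markers and a mitochondrial share of 15.3%, against 19.5% to 25.7% in the other libraries labelled male. The 14 further dyad and T-tubule genes listed below summed to 2596 CPM in S7, against 4681 to 5884 CPM in those other libraries. Without S7 the value of Jph2 was -0.49 (edgeR adjusted p = 0.9996).

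Among the libraries labelled female, KO was compared with WT in a fit whose contrast comes from the S series (S1, S2 and S3 against S4, S5 and S6), since no WT library belongs to the other series. Again no member passed. Calm3, a calmodulin gene, had 145, 84.1 and 75.5 CPM in S1, S2 and S3. In the KO libraries it had 126, 125 and 152 CPM in S4, S5 and S6 and 115 to 124 CPM in TKO1 to TKO4. S2 and S3 lay below all KO libraries, and S1 lay above all of them but S6. The log2 fold change was 0.40 (SE 0.197, edgeR adjusted p = 0.308). Jph2 had 530, 302 and 258 CPM in S1, S2 and S3 and 388 to 576 CPM in the 7 KO libraries, so that S2 and S3 again lay below all KO libraries while S1 lay within their range. Its log2 fold change was 0.33 (SE 0.230, adjusted p = 0.470).

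Both values moved with the WT library left out. Without S1, which left 2 WT libraries, the log2 fold change of Calm3 was 0.72 (adjusted p = 0.00481) and that of Jph2 0.68 (adjusted p = 0.0197), both from edgeR, and these were the 2 members called, where 16.8% of all 14358 genes were. Without S3 they were 0.23 (adjusted p = 0.780) and 0.14 (adjusted p = 0.890). Casq2 was at 0.23 (SE 0.206), Asph at 0.24 (SE 0.191), Calm2 at 0.14, Trdn at 0.09, Cav3 at 0.09 and Ryr2 at -0.12 (SE 0.170). Fkbp1b was at 0.44 (SE 0.387). Of these uncalled values, Casq2 was at 0.07 without S3 and 0.48 without S1, Asph at 0.13 and 0.43, and Calm2 at 0.05 and 0.27. Ryr2 ran from -0.22 (without S2) to -0.07 (without S1), Trdn from 0.06 (without S1) to 0.15 (without S2) and Fkbp1b from 0.17 (without S5) to 0.70 (without S4).

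Of the 9 genes 8 were higher in the libraries labelled female KO, with a median log2 fold change of 0.23 against -0.02 over all genes. By adjusted p, 0 members and 0.0551% of the 14511 genes were called in edgeR, and 0 members and 383 genes in DESeq2. Unadjusted, 0 members and 2597 genes (17.9%) had p under 0.05, and at the study's thresholds 0 members passed against 9.99% of all genes. Among markers of other cells, all 4 tested atrial markers had values above 0 (median log2 fold change 4.46, 3 past the study's thresholds), as had 3 of 5 macrophage markers (median 0.11) and the 1 adipocyte marker tested (2.72). Values were below 0 for 3 of 3 tested skeletal muscle (median -0.76), 5 of 6 fibroblast (-0.26) and 4 of 5 red blood cell markers (-0.50), and none of the markers of these 6 cell types had an adjusted p under 0.05, whereas the 4 Y-linked genes did (median 11.2). The mitochondrial share was 30.4% in S2 and 25.6% in S3, against 19.3% in S1 and 19.95% to 23.5% in the KO libraries. The summed atrial markers ran from 13.6 to 42.1 CPM in WT and from 10.4 to 354 CPM in KO libraries, and the part of these values in the result was not tested.

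**Figure D2:**
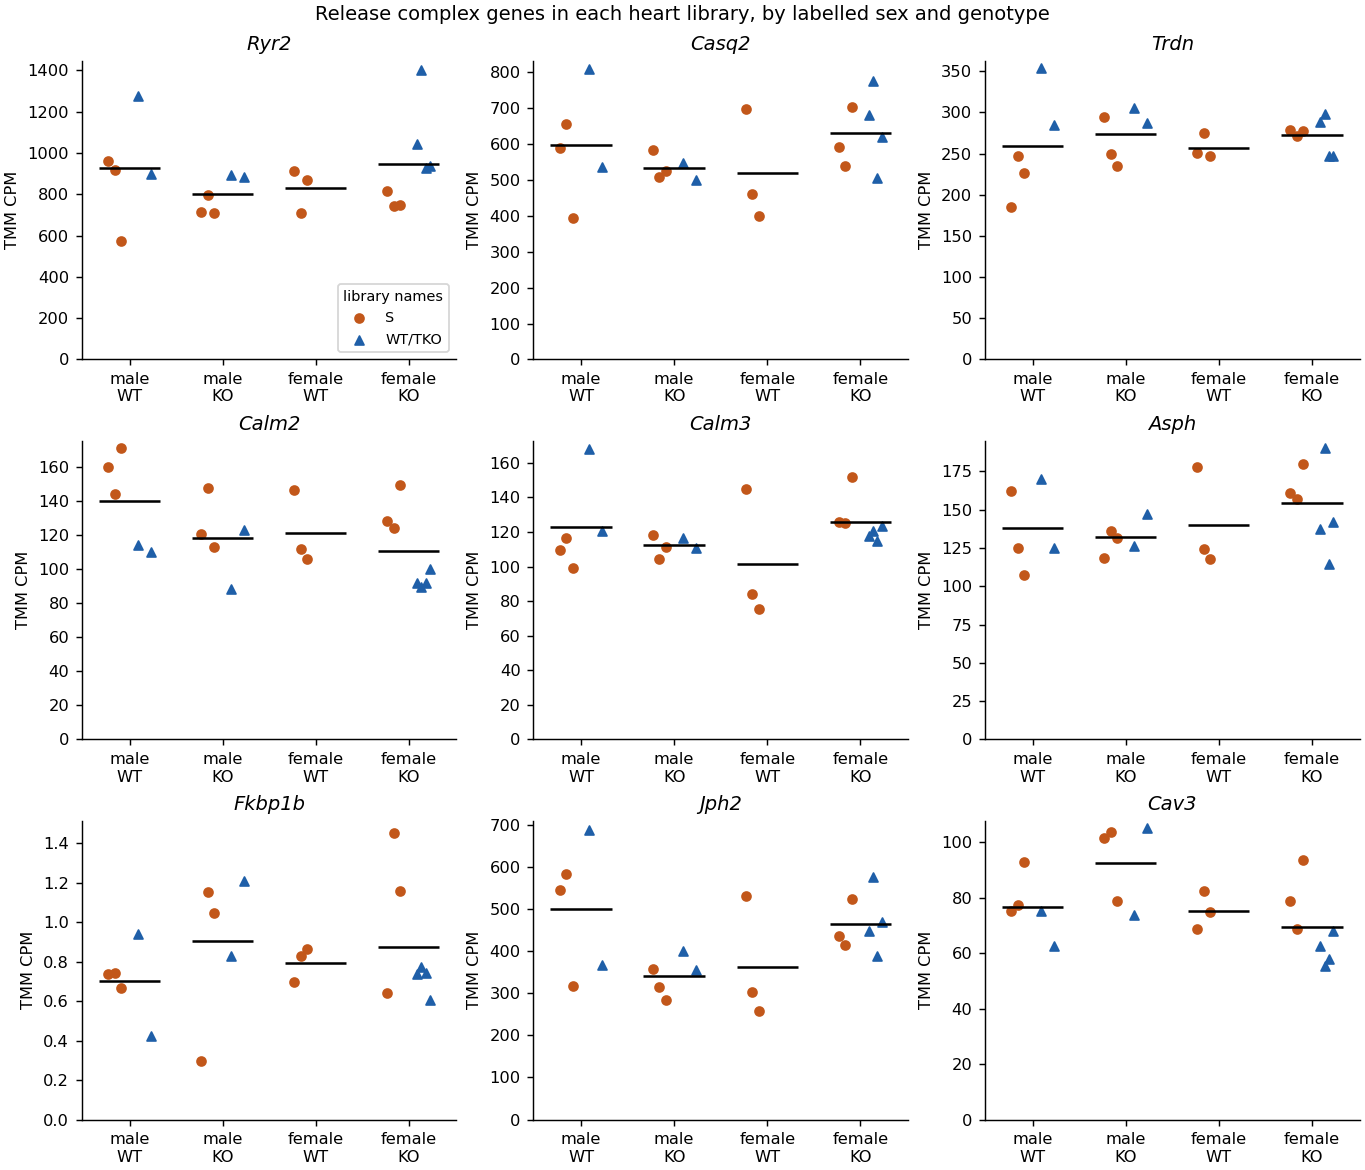
TMM-scaled CPM of each gene in every library, grouped by labelled sex and genotype; circles are S libraries, triangles WT/TKO libraries and lines the group means. Jph2 runs from 318 to 687 CPM in male WT and from 283 to 402 CPM in male KO, and Calm3 of S2 and S3 lies below the female KO libraries.

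With all 20 libraries in 1 fit, labelled sex and series as covariates, the genotype differences were small. Ryr2 was at -0.14 (SE 0.110), Casq2 at 0.0034 (SE 0.130), Trdn at 0.04 (SE 0.0889) and Asph at 0.03 (SE 0.114) on the log2 scale. Calm2 was at -0.09, Calm3 at 0.05, Jph2 at -0.20 (SE 0.177), Cav3 at 0.17 (SE 0.0970) and Fkbp1b at 0.31 (SE 0.260). Without 1 library Jph2 ran from -0.32 (without S3) to -0.09 (without WT1) and Calm2 from -0.14 (without S3) to -0.04 (without S12). Ryr2 ran from -0.18 (without WT2) to -0.09 (without WT1), Trdn from 0.0037 (without S7) to 0.11 (without WT1) and Fkbp1b from 0.22 (without S5) to 0.47 (without S10). Under the alternative settings, single libraries left out aside, Jph2 ran from -0.47 to -0.08, Ryr2 from -0.28 to -0.03 and Cav3 from 0.0076 to 0.38. In the fit with no such change, the smallest edgeR adjusted p among the 9 was 0.996. Over all 15187 genes 0% passed the adjusted threshold (748, or 4.93%, at an unadjusted p under 0.05, 0 of them members; DESeq2 12 genes, limma 1), and 1.94% passed the study's thresholds, with 0 members.

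Whether the genotype difference itself differed between labelled sexes was tested by an interaction term. In the S series WT libraries carried Xist and KO libraries Y-linked genes under both sex labels. The term therefore compares labels and cannot be read as genotype by sex. Jph2 had the largest value, -0.83 on the log2 scale (male minus female difference, SE 0.305, unadjusted p = 0.0128, edgeR adjusted p = 0.238). It was the 1 member past the study's thresholds, where 11.3% of all genes passed, and by adjusted p 0 members and 0% of genes were called, with 2375 genes (15.6%) at an unadjusted p under 0.05 (DESeq2 called 19 genes and 0 members, limma 0 genes). Calm3 was at -0.40 (SE 0.232), Casq2 at -0.37 (SE 0.258), Calm2 at -0.32 (SE 0.177) and Ryr2 at -0.14 (SE 0.226). Under the alternative settings, single libraries left out aside, Calm3 ran from -0.57 to -0.37 and Casq2 from -0.74 to -0.26. Calm2 ran from -0.47 to -0.0042 and Ryr2 from -0.43 to -0.04 under them. Without S1 the value of Jph2 was -1.19 (edgeR adjusted p = 0.0226), and 2 members were called, where 7.45% of all 15120 genes were. In that fit 4 members and 3910 of the 15120 genes had an unadjusted p under 0.05. The median of the members was -0.40 there, against -0.21 with all libraries. Without S3 the value of Jph2 was -0.64.

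Between the library series, with genotype and labelled sex as covariates, 3 of the 9 genes had an edgeR adjusted p under 0.05, where 16.4% of all genes did. Ryr2, the channel, was lower in the S libraries, at 575, 771 and 960 CPM (lowest, median and highest, n = 12) against 882, 932 and 1403 CPM (n = 8). Of the S libraries 9 lay below every WT/TKO library and the other 3 overlapped. The log2 difference was -0.42 (SE 0.107, edgeR adjusted p = 0.0116), or 25.4% lower. Calm2 was higher in the S libraries, at 106, 136 and 171 CPM against 88.1, 95.95 and 123 CPM, with 8 of 12 above every WT/TKO library. Its log2 difference was 0.40 (SE 0.0920, edgeR adjusted p = 0.00669). Cav3, the caveolin of muscle T-tubules, was higher by 0.29 (SE 0.0961, adjusted p = 0.0415), at 68.6, 78.9 and 103.6 CPM against 55.5, 65.4 and 105.1 CPM, with 5 of 8 WT/TKO libraries below every S library and 1, TKO6, above all of them.

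The other luminal and dyad genes did not pass between the series. Trdn was at -0.18 (SE 0.0871, edgeR adjusted p = 0.149), Jph2 at -0.24 (SE 0.167), Casq2 at -0.17 (SE 0.126), Calm3 at -0.12 (SE 0.115), Asph at -0.03 (SE 0.111) and Fkbp1b at 0.20 (SE 0.257) on the log2 scale. Without WT1 the values of Trdn, Jph2, Casq2 and Calm3 were nearest to 0, at -0.11, -0.11, -0.06 and -0.0050, and the farthest without 1 library were -0.22, -0.31, -0.21 and -0.17. Fkbp1b ran from 0.11 (without S5) to 0.35 (without S10). Under the alternative settings, single libraries left out aside, Jph2 ran from -0.48 to -0.13 and was not called. In the KO libraries alone Ryr2 was at -0.41 (adjusted p = 0.0323) and Calm2 at 0.41 (adjusted p = 0.0226), whereas Cav3 lost its call (0.26, adjusted p = 0.172). Leaving out any 1 library kept Ryr2 and Calm2 under 0.05 in 20 of 20 fits and Cav3 in 9 of 20. Without the 6 libraries S4 to S9, Calm2 lost its call too (0.29, edgeR adjusted p = 0.0606).

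Other markers moved with the series. In S libraries 5 of 5 atrial, 3 of 3 tested adipocyte and 4 of 5 macrophage markers were higher at an adjusted p under 0.05, as were 1 of 5 red blood cell markers (5 of 5 past the study's thresholds, median 1.21) and 1 of 3 tested smooth muscle markers. Of the ventricular markers 1 of 8, and of the endothelial markers 1 of 5, were lower. The summed macrophage markers ran from 248.1 to 492.6 CPM in S and from 182 to 239 CPM in WT/TKO libraries, and the ventricular markers from 39329 to 59321 and from 51503 to 60351 CPM. Without S7, S9, S11 and S12, the libraries highest in atrial genes, Ryr2 was at -0.44 (edgeR adjusted p = 0.0189), Calm2 at 0.38 (adjusted p = 0.0196) and Cav3 at 0.35 (adjusted p = 0.04999). In bulk heart RNA, fewer cells of a type and less RNA per cell cannot be told apart.

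**Figure D3:**
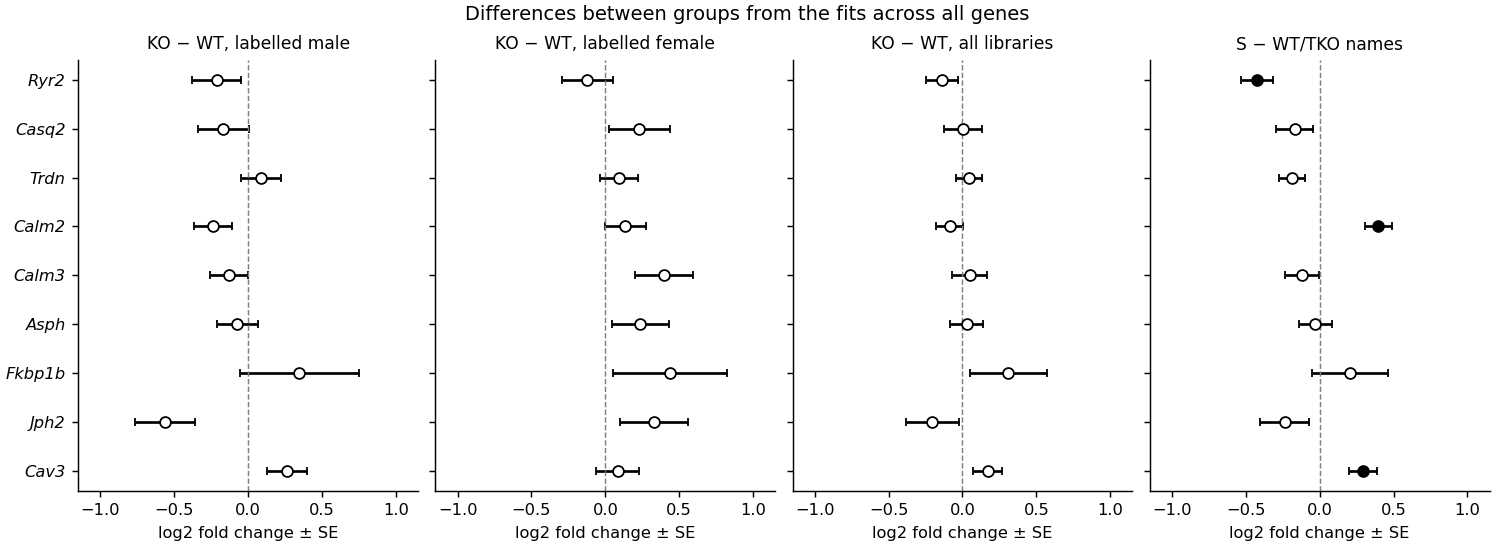
Log2 fold change ± SE of each gene from edgeR for KO minus WT in libraries labelled male, labelled female and all 20, and for S minus WT/TKO library names; filled points have an adjusted p under 0.05. Filled points appear in the last panel alone, for Ryr2 (-0.42), Calm2 (0.40) and Cav3 (0.29).

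Ratios between members within a library do not depend on how libraries are scaled to each other. Ratios of 7 gene pairs were tested for genotype and for series by exact permutation of log2 FPKM ratios within strata, two-sided, with Benjamini-Hochberg adjustment over the 14 tests. Strata of 1 kind drop out, so the genotype tests rest on 16 libraries (without TKO1 to TKO4, which have no WT counterpart) and the series tests on 17 (without S1, S2 and S3), while the means and ranges are over all libraries. For genotype none passed. Asph/Ryr2 came closest, 0.22 higher in KO on the log2 scale (2400 permutations, exact permutation p = 0.0258, adjusted p = 0.0723), with values of 0.221 to 0.430 in KO and 0.239 to 0.348 in WT. Casq2/Ryr2 differed by 0.17 (exact permutation p = 0.148) and Jph2/Ryr2 by -0.01 (exact permutation p = 0.938) between the genotypes. Without 1 library Casq2/Ryr2 ran from 0.09 (without S3) to 0.21 (without S1).

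Between library series 4 ratios passed, each by exact permutation with 3500 permutations. Each has Ryr2 or Calm2 as its denominator, and both genes differed between the series on their own. The ratios are therefore not separate from those calls, and ratios of genes outside the members were not tested. Casq2/Ryr2, the calcium store over the channel, was 7.44 ± 1.24 in S (SD, n = 12) and 6.34 ± 0.471 in WT/TKO libraries (SD, n = 8), a stratified log2 difference of 0.29 (exact permutation, adjusted p = 0.00800). Asph/Ryr2 was 0.323 ± 0.0528 against 0.251 ± 0.0240 (0.41 on the log2 scale, exact permutation, adjusted p = 0.00800). Calm3/Calm2, the ratio of the calmodulin genes among the members, was 0.515 ± 0.0957 in S and 0.750 ± 0.105 in WT/TKO libraries (-0.50 on the log2 scale, exact permutation, adjusted p = 0.00800). Of the WT/TKO libraries, 7 of 8 lay above every S library in Calm3/Calm2, TKO6 being the exception at 0.547. Jph2/Ryr2 was higher by 0.28 (exact permutation, adjusted p = 0.0380), a call lost in 9 of the 20 fits without 1 library. S1, S2 and S3 are not in this test, so leaving 1 of them out could not change its difference.

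Subsets with fewer libraries, the 10 labelled male, 7 labelled female, and 5 left in the test without S4 to S9, allow exact permutation p-values no smaller than 0.01, 0.0286 and 0.1 before adjustment, so they are given by size and not by call. In that order Casq2/Ryr2 differed by 0.22, 0.40 and 0.31 and Asph/Ryr2 by 0.22, 0.67 and 0.18 on the log2 scale. Calm3/Calm2 was at -0.60, -0.35 and -0.31, whereas Jph2/Ryr2 was at 0.16, 0.44 and 0.01.

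Trdn/Ryr2 (0.20), Fkbp1b/Ryr2 (0.52) and Cav3/Jph2 (0.38) did not pass between the series, with exact permutation adjusted p = 0.211, 0.192 and 0.101. Without S10, Fkbp1b/Ryr2 passed at 0.72 (exact permutation, adjusted p = 0.00667), and without 1 library it ran from 0.38 to 0.72. S10 held 4 counts of Fkbp1b, close to the floor. With 1 added to each FPKM and all libraries kept, Fkbp1b/Ryr2 was at 0.40 (exact permutation, adjusted p = 0.0552). Cav3/Jph2 ran from 0.477 to 1.21 in the S libraries and from 0.355 to 1.09 in the others. Libraries of both genotypes reached above 1 in the S series.

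**Figure D4:**
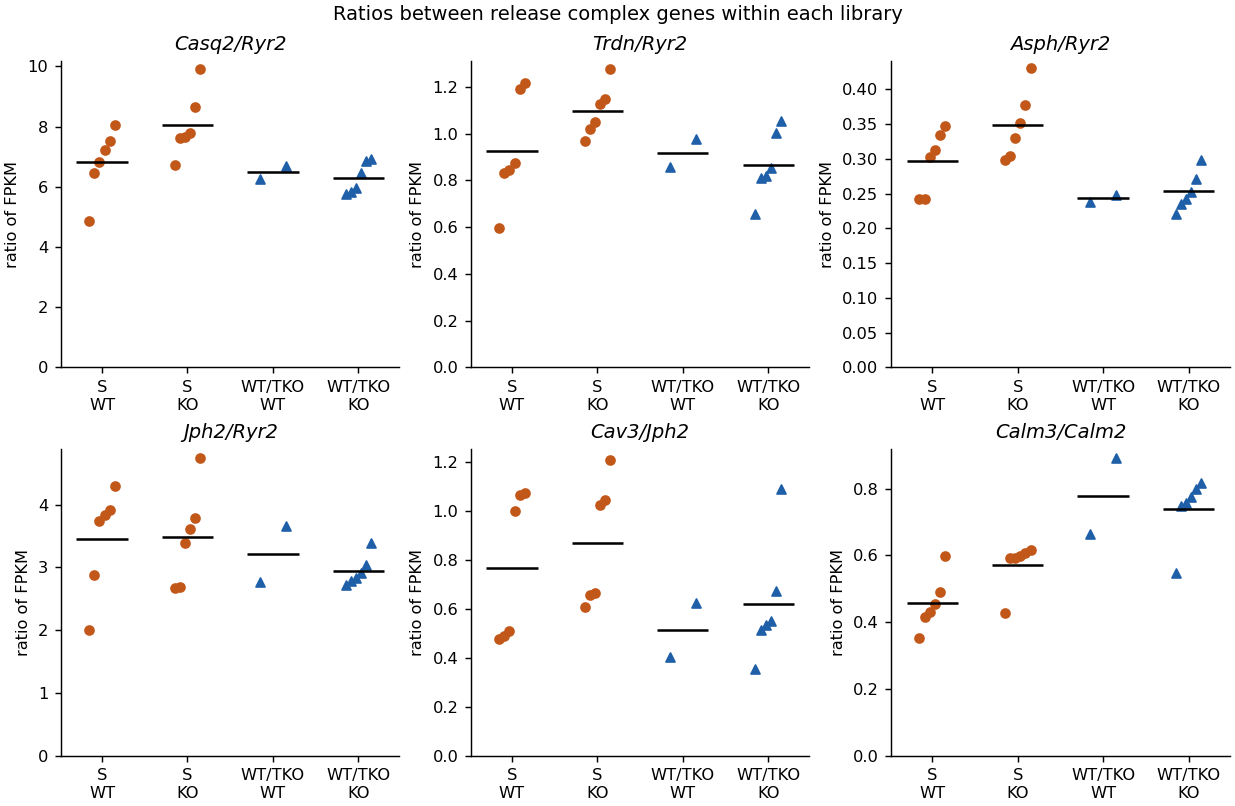
Ratio of FPKM between pairs of genes in each library (y axis, from 0), by library series and genotype, with the mean as a line. Calm3/Calm2 is lower in the S libraries (0.352 to 0.617) than in 7 of the 8 WT/TKO libraries, and Asph/Ryr2 is higher (0.242 to 0.430 against 0.221 to 0.299).

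Members also varied together from library to library. After the mean of each series was subtracted, the log2 CPM of Casq2 and Jph2 had a Pearson r of 0.88 (Spearman 0.86) over the 20 libraries, given as a description since the libraries share groups, depth and composition. Casq2 had r = 0.81 with Calm3, 0.76 with Asph and 0.68 with Ryr2. Jph2 had r = 0.76 with Calm3, 0.70 with Asph and 0.66 with Ryr2. Of the 36 pairs 9 were over 0.6, all of them among these 5 genes, and 9 were over 0.6 without S7. Many other genes had such values too: 10.2% of the other 15186 genes had r over 0.6 with Casq2, 10.8% with Jph2, 9.75% with Calm3, 5.59% with Asph and 3.20% with Ryr2. Of the other members 4, 4, 3, 4 and 3 did, in that order. Whether members exceed the share over all genes was not tested.

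Trdn, Calm2, Fkbp1b and Cav3 had no r over 0.6 with another member. The highest r of Trdn with a member was 0.34 (Calm3) over all 20 libraries, and its values depended on S7: without S7 it had r = 0.48 with Casq2, 0.43 with Asph, 0.38 with Jph2 and 0.34 with Ryr2, against 0.32, 0.21, 0.10 and 0.06 with S7. Cav3 ran against the channel gene, at r = -0.43 with Ryr2 and -0.26 with Jph2, and its highest value was 0.42 with Calm2. The 2 calmodulin genes among the members had r = 0.40 with each other.

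**Figure D5:**
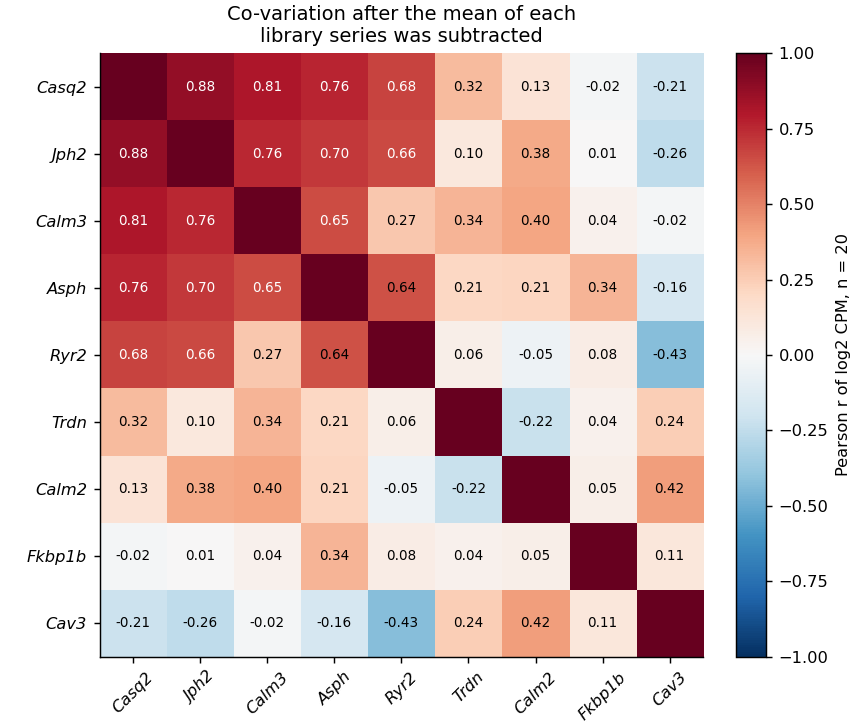
Pearson r of log2 CPM between the 9 genes over 20 libraries after the mean of each library series was subtracted. Casq2, Jph2, Calm3, Asph and Ryr2 form a block with r from 0.27 to 0.88, and Cav3 is negative with Ryr2 (-0.43).

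The genes whose pattern was most like each member, by the same r over the 20 libraries, were named by a rule of 3 per member. For Casq2 they were Srl, coding for the luminal calcium-binding protein sarcalumenin (r = 0.95), Gpd1l (0.93) and Lynx1 (0.93). For Jph2 they were Msrb3 (0.95), Exoc3 (0.94) and Slc16a1, a lactate transporter gene (0.94). For Ryr2 they were Clec16a (0.90), Rnf123 (0.86) and Zfp869 (0.83). Calm3 was followed most closely by Dhx32 (0.93), Tomm40l (0.91) and Mrpl12 (0.90), and Calm2 by Nop58 (0.91), Rrp15 (0.90) and Eif4a1 (0.87). Asph had Rap1gap2 (0.89), Arhgef10l (0.86) and the Z-disc gene Nexn (0.84), and Trdn had Chac2 (0.86), Tmod4 (0.85) and Ube2b (0.84). Cav3 had Arl6ip4 (0.84), Clpp (0.82) and Adprhl2 (0.82). Fkbp1b, near the floor, reached at most 0.70, with Serpina3i, followed by 1810024B03Rik (0.68) and Rpl9-ps6 (0.67).

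The wider pathway was read from 3 lists holding 38 further genes: regulators of the release complex, other proteins of the dyad and T-tubule, and other genes of CPVT and related arrhythmias. Of these 37 were tested. By genotype, 0 of 37 had an adjusted p under 0.05, be it in the libraries labelled male, in those labelled female or in all 20. Unadjusted, 4, 10 and 2 of them had p under 0.05 in the 3 comparisons, in that order, where 4.75%, 17.9% and 4.93% of all genes did. At the study's thresholds 3, 2 and 1 passed, where 2.09%, 9.99% and 1.94% of all genes did. For the interaction 7 of 37 passed these thresholds, where 11.3% of all genes did. The median log2 fold changes of the 37 in the 3 comparisons were -0.10, 0.11 and 0.0039, against -0.01, -0.02 and -0.01 over all genes tested.

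Casq1, the skeletal muscle calsequestrin, had the smallest p among them over all 20 libraries (log2 fold change 1.19, SE 0.358, unadjusted p = 0.00315, edgeR adjusted p = 0.763). It had 4.02 to 11.99 CPM in male WT, 5.68 to 32.8 in male KO, 4.86 to 7.97 in female WT and 4.03 to 25.4 CPM in female KO, so the groups overlapped. Skeletal muscle markers summed to 2.38 to 6.90 CPM in KO and 2.46 to 20.2 CPM in WT libraries. In the libraries labelled male, Jph1, the relative of Jph2, was at -0.73 (SE 0.221, edgeR adjusted p = 0.882), with 17.3 to 41.2 CPM in WT and 10.4 to 19.7 CPM in KO, and with female labels at 0.34 (adjusted p = 0.633). With male labels Casq1 was at 1.53 (SE 0.498) and Pde4d at -1.37 (SE 0.499), both at an edgeR adjusted p of 0.882. Akap6, an anchor of protein kinase A at the channel, was at -0.47 with male labels (edgeR adjusted p = 0.882), with 84.7 to 170 CPM in WT and 61.6 to 98.7 CPM in KO. With female labels Akap6 was at 0.53 (SE 0.206, edgeR adjusted p = 0.231), and the interaction was -0.88 (unadjusted p = 0.00425, edgeR adjusted p = 0.226). In the libraries labelled female, Speg, a kinase of the junction, was at -0.74 (edgeR adjusted p = 0.144), against -0.02 with male labels. Jsrp1 was at -1.84 with female labels (SE 0.560, edgeR adjusted p = 0.161), against 0.17 with male labels.

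Between the library series 6 of the 37 passed (16.2%, where 16.4% of all genes did), and all 6 were lower in S. They were Hrc, coding for the histidine-rich calcium-binding protein of the reticulum lumen (-0.57, edgeR adjusted p = 0.00460), Ank2, the ankyrin B gene (-0.50, adjusted p = 0.00474), the IP3 receptor gene Itpr2 (-0.60, adjusted p = 0.0124) and the inward rectifier gene Kcnj2 (-0.62, adjusted p = 0.0187). The L-type channel subunit genes Cacna2d1 (-0.43, adjusted p = 0.0251) and Cacna1c (-0.30, adjusted p = 0.0438) completed them. Hrc had 361 to 837 CPM in the S libraries and 872 to 1177 CPM in the WT/TKO libraries, with no overlap.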

How the data were processed

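RNA-seq of poly-A RNA (150 bp paired-end reads) was analysed for 20 mouse heart libraries. The authors deposited whole-number read counts per gene, without normalization, and FPKM made from them by merged exon length. The submitters' processing notes name HISAT2, HTSeq 0.6.1p2, DESeq2 1.26.0 and GRCm38; strandedness is not given in the sources used here. Each column was matched to its sample by name. Total counts of 12540002 to 20038593 set the precision, with a floor of 3 counts.

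Counts were tested with edgeR 4.0.16 (TMM, quasi-likelihood F test, genes reaching 10 counts in 3 or more libraries, Benjamini-Hochberg over all genes tested), in R 4.3.3. Series and, in fits of all libraries, labelled sex were covariates. Alternatives were DESeq2 1.42.0, limma 3.58.1 on log2(FPKM + 1), no filter, upper-quartile scaling, no series covariate, each series alone, a Y-linked covariate, sets of libraries left out, and each library left out in turn. Ratios of FPKM were tested by exact permutation within strata. Correlations used log2 CPM with a prior count of 2. Scripts were tested on simulated data. Libraries keep their labels although some sex-linked genes go against them. Each of the 44 within-group pairs of libraries differed beyond counting noise. The genes named are the 9 members, those of the gene lists, and the 3 most like each member. Members and lists were chosen with earlier results of these data known.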

Additional observations from a re-analysis of the deposited data

Results flagged for a closer look

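Within groups of 4 to 10 libraries, 2 of 48 sets of values held a library whose gap to its nearest neighbour was large for the group's range by Dixon's test, and chance flags about 1 set in 20. Calm3 had 152 CPM in S6 among the 7 libraries labelled female KO, where the other 6 lay between 115 and 126 CPM. The Trdn/Ryr2 ratio of FPKM was 1.28 in S10 among the 5 libraries labelled male KO, where the other 4 lay between 0.966 and 1.05. No member differed in its genotype effect between labelled sexes at an adjusted p under 0.05 (edgeR, 0 of 9 members, with 1, Jph2, at an unadjusted p under 0.05).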

How the results depend on the processing

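No paired analysis was possible because no WT and KO library of the same labelled sex and series share a number in their names (WT1 and WT2 are labelled male, TKO1 and TKO2 female), and replicate numbers in accession order only name a library. The counts of members with an adjusted p under 0.05 for genotype stayed at 0 under every alternative run except without S1 (2 in the libraries labelled female, with 16.8% of all genes called, and 2 for the interaction, with 7.45%; range without 1 library 0 to 2 for each). Between series the 3 members became 1 without S4 to S9 (18.7% of all genes called), where Calm2 was at 0.29 (adjusted p = 0.0606) and Cav3 at 0.32 (adjusted p = 0.0585), 2 with no filter on low counts (9.04% of genes; Cav3 adjusted p = 0.0715), 2 with the Y-linked covariate (15.1%; Cav3 adjusted p = 0.111), and 2 to 3 without 1 library (10.7% to 20.7%). At the study's thresholds the count in libraries labelled male was 1 in the S libraries alone (2.68% of all genes) and 0 to 1 without 1 library (1.43% to 3.36%; 1 without WT2, S9, S10 or TKO5), that in libraries labelled female 0 to 2 (4.45% to 20.6%; 2 without S1), and that of the interaction 0 without S4 to S9 (4.13%) and 0 to 3 without 1 library (5.03% to 20.3%; 0 without S3, 3 without S1). The 4 ratio calls became 0 without S4 to S9, 0 in libraries labelled male alone and 0 in those labelled female alone, and 3 to 7 without 1 library (7 without S10); without S4 to S9 the smallest exact p possible was 0.1, with male labels alone 0.01 before adjustment over 14 tests, and with female labels alone the smallest exact permutation p was 0.0286 (adjusted p = 0.1).

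Some directions turned, and the causes were not tested. Over all libraries, Casq2 (0.0034) was at -0.0079 with DESeq2, -0.0025 with no filter, -0.35 in WT/TKO libraries alone and -0.039 without S4 to S9, and -0.074 to 0.099 without 1 library. Trdn was at -0.098, -0.033 and -0.11, and Calm3 at -0.33, -0.026 and -0.096, in WT/TKO libraries alone, with the Y-linked covariate and without S4 to S9. Asph was at -0.097 in WT/TKO libraries alone and -0.065 without S4 to S9. Without 1 library Calm3 ran from -0.037 to 0.15 and Asph from -0.024 to 0.098. With male labels, Trdn was at -0.11 in WT/TKO libraries alone, -0.14 with the Y-linked covariate and -0.11 without S4 to S9, Calm3 at 0.031 in S libraries alone, and Asph at -0.14 to 0.031 without 1 library. With female labels and no series covariate, Ryr2 was at 0.19, Calm2 at -0.13 and Cav3 at -0.12; Cav3 ran from -0.034 to 0.19 without 1 library. Between series, Calm3 was at 0.078 in KO libraries alone, and Asph at 0.0092 with upper-quartile scaling, 0.065 with limma, 0.060 in KO libraries alone and -0.080 to 0.047 without 1 library. For ratios by genotype, Casq2/Ryr2 was at -0.064 and Calm3/Calm2 at -0.22 without S4 to S9, Jph2/Ryr2 at 0.51 and Cav3/Jph2 at -0.31 with female labels alone, and Jph2/Ryr2 ran from -0.14 to 0.042 without 1 library. For ratios by series, Fkbp1b/Ryr2 was at -0.23 without S4 to S9 and Trdn/Ryr2 at -0.023 with male labels alone. Without S9, Asph/Ryr2 and Trdn/Ryr2 passed for genotype (exact permutation, adjusted p = 0.0100 and 0.0257), and without S10 Asph/Ryr2 and Fkbp1b/Ryr2 did (0.0467 and 0.0378), as did Fkbp1b/Ryr2 for series (0.00667).

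The fits without S7, S9, S11 and S12, with KO libraries alone, and with the longest transcript as length were chosen after seeing the data. Not run was the Y-linked covariate for female labels and for the interaction. WT/TKO libraries alone hold no female WT library and were not fitted for female labels or the interaction. With female labels a fit without S4 to S9 was not possible, since genotype and series coincide there. Depth limits Fkbp1b most (4 to 21 counts).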
